A study of Mus musculus with 16 samples.

Results

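The transcriptome of P19 cells that had received only the control treatment was described gene by gene, from the 4 control arrays of a series of 16. The members were the samples whose labels give the condition as control, replicates 1 to 4, and all genes on these arrays were read, so that no measured value decided which samples entered. P19 is a mouse embryonal carcinoma line grown in culture, so the 4 arrays are samples of 1 line and not of different animals. The other conditions were let-7a overexpression, SFPQ knockdown (siSfpq), and let-7a overexpression with SFPQ knockdown (let-7a + siSfpq), with 4 arrays each. The control arrays carried RNA of transfected cells, and for a parallel experiment the study's methods give the control as a control siRNA with a control mimic. Total RNA was labelled with the dye Cy3 and hybridized to 1-colour Agilent mouse arrays.

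Embryonal carcinoma cells are the stem cells of teratocarcinomas, and they resemble the early embryo's epiblast, from which all tissues of the body arise. Pluripotency rests on transcription factors such as Pou5f1 (Oct4) and Sox2, and Lin28a, an RNA-binding protein, blocks the maturation of let-7 precursors in such cells. P19 cells are widely used because retinoic acid turns them into neurons and dimethyl sulfoxide into muscle, so the lineage genes that are already on or still off before any treatment are the starting point of such experiments.

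A gene was called detected if at least 1 of its probes was marked well above background by the scanner software on all 4 control arrays. It was called not detected if no probe was so marked on any of them, and partly detected otherwise. A detected gene could thus have another probe that was marked on none of these arrays. This held for 38 listed genes, and those named in this report are given at its end. Levels are log2 of the processed signal after quantile normalization. A level belongs to its probe, so it was compared between samples of 1 gene and never between genes. The lowest signal marked well above background lay between 3.49 and 4.19 on the 4 arrays, and some probes without the mark had signals within that range. Below, a gene is called above the limit where the mark was set and below it where it was not, and a gene below the limit has only a bound on its level.

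A pair of features of the control arrays bears on every spread given here. Arrays 1 and 2 differed with an SD of 0.177 over 30502 probes, close to the 0.142 to 0.170 between 2 spots of 1 probe on 1 array, so they were averaged and counted as 1 sample, and n is 3. Array 3 stood apart. It differed from array 4 with an SD of 0.42 and from arrays 1 and 2 with an SD of 0.46, against 0.28 between array 4 and arrays 1 and 2. Arrays 1 and 2 were on 1 slide and arrays 3 and 4 on another. Between 34565 and 37609 of 59305 gene spots per array were well above background, against 2 to 6 of 308 negative control spots, and no gene spot was saturated. The methods describe transfected replicates, 1 fewer per condition than the arrays analysed here, and neither they nor the labels say that these were separate cultures, so the spread may be technical.

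The 3 genes that mark the line were detected on all 4 control arrays. Pou5f1 read 14.40, 14.47, 14.85 and 14.58 on arrays 1 to 4, with a mean of 14.62 ± 0.21 (SD, n = 3). Sox2 read 10.96, 11.09, 11.11 and 11.05. Lin28a read 14.41, 14.39, 14.34 and 14.42. Sox2 and Lin28a thus varied by an SD of 0.04 each, while Pou5f1 was highest on array 3. The cells therefore carried the markers that their label calls for.

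Stretches of sequence before the start sites of 6 genes are printed here because detection in these cells followed the density of CpG dinucleotides in them, as described further on. Pou5f1, Sox2 and Lin28a were detected. Zfp42 (Rex1), a marker of naive pluripotency, Alb, the liver's serum albumin, and Ifit1, an interferon-stimulated gene, were not. Each line gives the 250 bases before the first start listed, from RefSeq on GRCm38.p6, read 5′ to 3′ on the gene's own strand, with every CpG in capitals. The windows are chr17:35505782-35506031 on the plus strand for Pou5f1, chr3:34649745-34649994 on the plus strand for Sox2 and chr4:134018817-134019066 on the minus strand for Lin28a. Those of the other genes are chr8:43307010-43307259 on the minus strand for Zfp42, chr5:90460620-90460869 on the plus strand for Alb and chr19:34640639-34640888 on the plus strand for Ifit1.
Pou5f1: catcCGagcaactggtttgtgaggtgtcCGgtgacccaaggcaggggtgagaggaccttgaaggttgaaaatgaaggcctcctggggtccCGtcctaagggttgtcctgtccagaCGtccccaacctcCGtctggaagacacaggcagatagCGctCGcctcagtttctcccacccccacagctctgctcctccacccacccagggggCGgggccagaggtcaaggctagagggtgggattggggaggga
Sox2: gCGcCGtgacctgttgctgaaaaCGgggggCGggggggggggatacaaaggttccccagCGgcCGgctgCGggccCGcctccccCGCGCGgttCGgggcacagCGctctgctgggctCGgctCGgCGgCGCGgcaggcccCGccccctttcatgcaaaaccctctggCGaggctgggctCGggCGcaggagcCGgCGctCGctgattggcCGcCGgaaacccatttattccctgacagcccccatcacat
Lin28a: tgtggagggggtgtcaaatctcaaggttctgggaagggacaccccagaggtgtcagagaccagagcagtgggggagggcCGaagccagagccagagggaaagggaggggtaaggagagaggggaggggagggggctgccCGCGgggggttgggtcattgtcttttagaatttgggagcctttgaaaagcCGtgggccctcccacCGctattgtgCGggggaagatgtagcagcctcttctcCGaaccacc
Zfp42: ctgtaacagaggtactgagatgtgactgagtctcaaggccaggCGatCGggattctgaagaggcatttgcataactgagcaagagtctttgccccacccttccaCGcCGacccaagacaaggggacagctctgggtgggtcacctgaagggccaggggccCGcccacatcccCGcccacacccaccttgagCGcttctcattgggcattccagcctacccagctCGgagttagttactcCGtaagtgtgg
Alb: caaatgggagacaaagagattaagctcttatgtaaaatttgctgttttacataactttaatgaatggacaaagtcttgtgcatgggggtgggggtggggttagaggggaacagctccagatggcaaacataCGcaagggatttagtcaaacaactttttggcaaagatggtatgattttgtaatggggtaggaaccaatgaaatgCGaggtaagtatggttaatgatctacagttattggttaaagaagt
Ifit1: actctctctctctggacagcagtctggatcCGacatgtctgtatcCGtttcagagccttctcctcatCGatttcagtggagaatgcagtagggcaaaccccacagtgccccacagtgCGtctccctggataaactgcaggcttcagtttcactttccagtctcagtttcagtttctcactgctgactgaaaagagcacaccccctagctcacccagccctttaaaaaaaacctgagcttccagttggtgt
The window of Sox2 holds 27 CpG and that of Alb holds 2. Pou5f1, Lin28a, Zfp42 and Ifit1 lie between them with 8, 7, 9 and 4.

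Of 27244 named genes, 17246 were detected (63.3%), 7494 were not detected (27.5%) and 2504 were partly detected. Because a signal only just above background counts as detected, a stricter count was added after the data were seen, of genes with a probe at least 2 log2 units above the lowest such signal on each array. This was met by 14564 genes (53.5%), and a detected gene that missed it on at least 1 array is called close to the limit. Protein-coding genes were detected in 70.0% of 20199 cases and long noncoding RNAs in 32.1% of 1861. The lists described below are therefore set against 63.3% for detection and 53.5% for clear detection, and a share close to these is not a property of the list.

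Pluripotency genes were detected almost throughout, with a gap among the naive genes. Of the 18 core genes, 17 were detected and 15 clearly so. They included Nanog, at 10.16, 10.16, 10.11 and 10.14, and Utf1, a chromatin-bound factor of stem cells, at 13.86, 13.84, 14.12 and 13.67. Foxd3, a forkhead repressor, was the exception, being well above background on 3 of 4 arrays. Dppa2 and Dppa4 were detected but close to the limit, with all values between 4.37 and 5.33. Over the 17 detected genes the median SD was 0.14, and none varied by more than 1 log2 unit between samples.

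Among 16 genes of naive pluripotency, the state of the preimplantation epiblast, 13 were detected and 10 clearly. Klf2, a Krüppel-like factor, read 11.08, 11.12, 11.23 and 11.24, and Esrrb, an orphan nuclear receptor, read 7.83, 7.64, 7.74 and 7.73. Zfp42 stayed at 1.83, 3.1, 1.66 and 1.65, below the detection limit on every array, and Tcl1, a cofactor of Akt, likewise did not reach it. Gbx2, a homeobox gene, was above it on 2 arrays. Prdm14, Dppa3 and Dppa5a were detected but close to the limit. Dppa3, a maternal factor also known as Stella, read 3.86, 6.23, 4.77 and 5.41, so that even the paired arrays 1 and 2 differed by 2.37. Zfp42 and Tcl1 were each read by 1 probe.

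All 15 genes of the formative and primed epiblast, the later state in which cells prepare for lineage choice, were clearly detected. Otx2, a homeobox factor of this state, had a mean of 12.27 ± 0.17. Fgf5, the growth factor that defines the postimplantation epiblast, had a mean of 9.54 ± 0.20, and Dnmt3b, a de novo DNA methyltransferase, had one of 12.81 ± 0.02 (SD, n = 3 for each). Nodal, a growth factor of this state, read 13.03, 13.06, 13.07 and 12.89, and its inhibitor Lefty1 had a mean of 14.84 ± 0.21. The naive and primed lists thus stood at 13 of 16 and 15 of 15, both above the 63.3% of all genes.

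**Figure D1:**
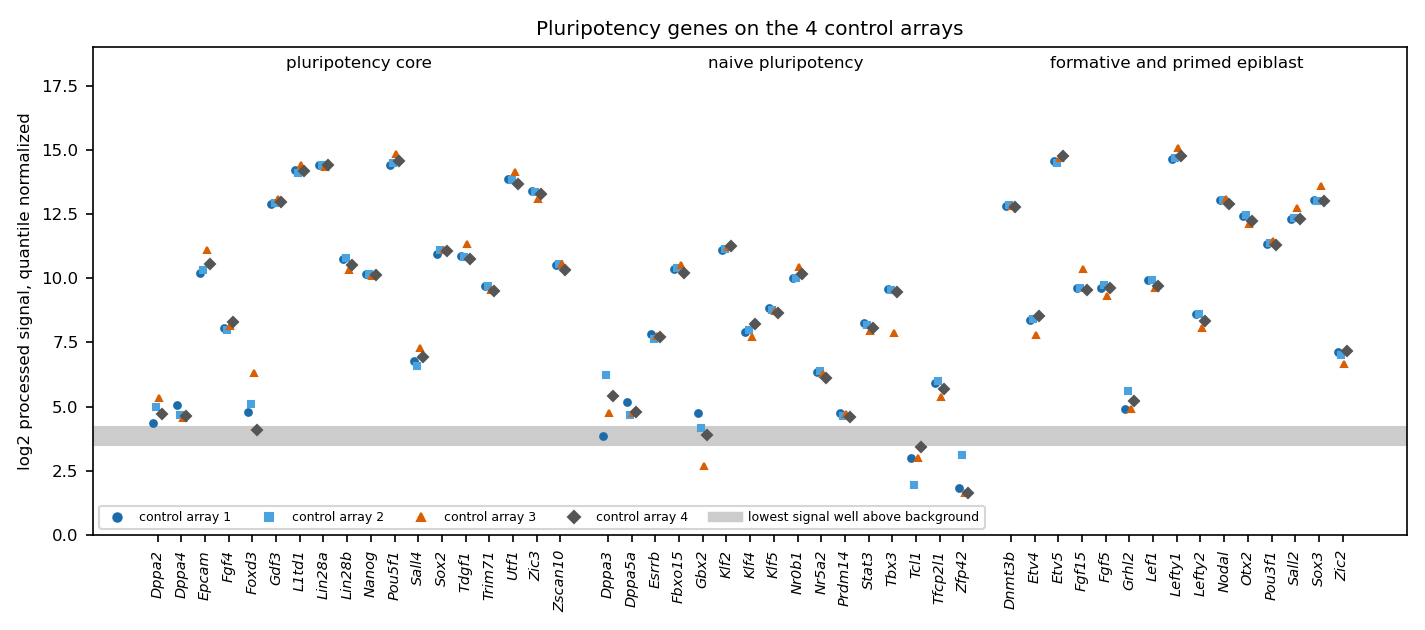
Levels of 49 pluripotency genes on the 4 control arrays, as log2 processed signal after quantile normalization. Each symbol is 1 array, the grey band spans the lowest signal marked well above background, 3.49 to 4.19, and heights of different genes cannot be compared. Zfp42 and Tcl1 lie below the band, and Tbx3 is lower on array 3 than on the other arrays.

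Early lineage genes were split within each list. Of 17 genes of the primitive streak and mesendoderm, the first tissue to leave the epiblast, 9 were detected. T (Brachyury), the mesoderm T-box factor, read 10.26, 10.30, 9.83 and 10.36, and Gsc, the organizer's goosecoid homeobox gene, read 8.91, 8.93, 8.61 and 9.11. Mixl1, Mesp1, Sox17, Cdx2 and Cdx4 were not detected, and Evx1, Cer1 and Foxa2 were partly detected. The share, 52.9%, was below that of all genes.

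Endoderm genes were detected in 8 of 17 cases and clearly in 5. Lama1, a basement membrane laminin, had a mean of 12.70 ± 0.17 (SD, n = 3), and Gata6, a primitive endoderm factor, read 6.89, 7.01, 6.57 and 7.03. The hepatic and visceral endoderm genes Hnf4a, Afp, Ttr, Alb and Apoa1 were not detected on any array. Dab2, an endocytic adaptor of visceral endoderm, was clearly detected at 8.24, 8.30, 8.17 and 8.29, and Amn and Cubn, which form its uptake receptor, were detected close to the limit. Apoa2 was detected by 1 of its 2 probes. In the trophoblast list 8 of 13 genes were detected, among them Tfap2c, Ascl2 and Gcm1, while Tpbpa, a spongiotrophoblast marker, and Krt7 were not.

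Neural genes were detected before any differentiation was induced. Of 20 genes of neural progenitors 17 were detected, and 23 of 24 neuronal genes were, of which 20 clearly. The progenitor genes Nes, an intermediate filament, and Sox1, the first neural Sox factor, had means of 12.77 ± 0.12 and 9.08 ± 0.09 (SD, n = 3 for each). Pax6, Neurog1 and Olig2, which pattern the neural tube or start neurogenesis, were partly detected, and the remaining neuronal gene, Neurod1, was so too.

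Most genes of neurons proper were well above the limit. Stmn2, a microtubule regulator of growing axons, read 14.54, 14.58, 14.70 and 14.62. Dbh, the enzyme that makes noradrenaline, read 11.55, 11.60, 10.94 and 11.56. Tubb3, Snap25, Nefl, Syn1 and Gap43 were also clearly detected. Rbfox3 (NeuN), Neurod2, Gad1 and Isl1 were nearer to the limit, with no value over 6.34. In bulk RNA, a low level in every cell and a high level in a few cells cannot be told apart, and both readings apply to each gene named here.

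The difference of array 3 from the other control arrays ran over all genes, since it was the sample farthest from the median in 58.3% of detected genes, and it showed in the neuronal list. Of its 23 detected genes, 20 were lowest on array 3, against 36.6% of all 17246 detected genes, and 3 were highest there, against 46.8%. The median of the difference between array 3 and the mean of the other samples was -0.44 for these genes and 0.04 for all. Gap43, a growth cone protein, read 11.96, 11.93, 10.85 and 11.91, and Dcx, a microtubule protein of young neurons, read 7.11, 7.21, 5.77 and 6.79. Stmn2 was not lower on array 3. Among other lists, 5 of 6 detected skeletal and smooth muscle genes were highest on array 3 (median 0.38), and the endoderm list had a median of -0.25. The part of RNA quality, culture or slide in this difference was not tested.

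In the glial list 9 of 12 genes were detected. Aldoc and Slc1a3, which astrocytes share with many progenitors, were clearly detected. Gfap was detected by 1 of its 3 probes, Sox10 was close to the limit, and S100b was not detected. The astrocyte genes Aldh1l1 and Aqp4 and the myelin genes Mbp and Mog were clearly detected, with Mog at a mean of 7.34 ± 0.12 (SD, n = 3).

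**Figure D2:**
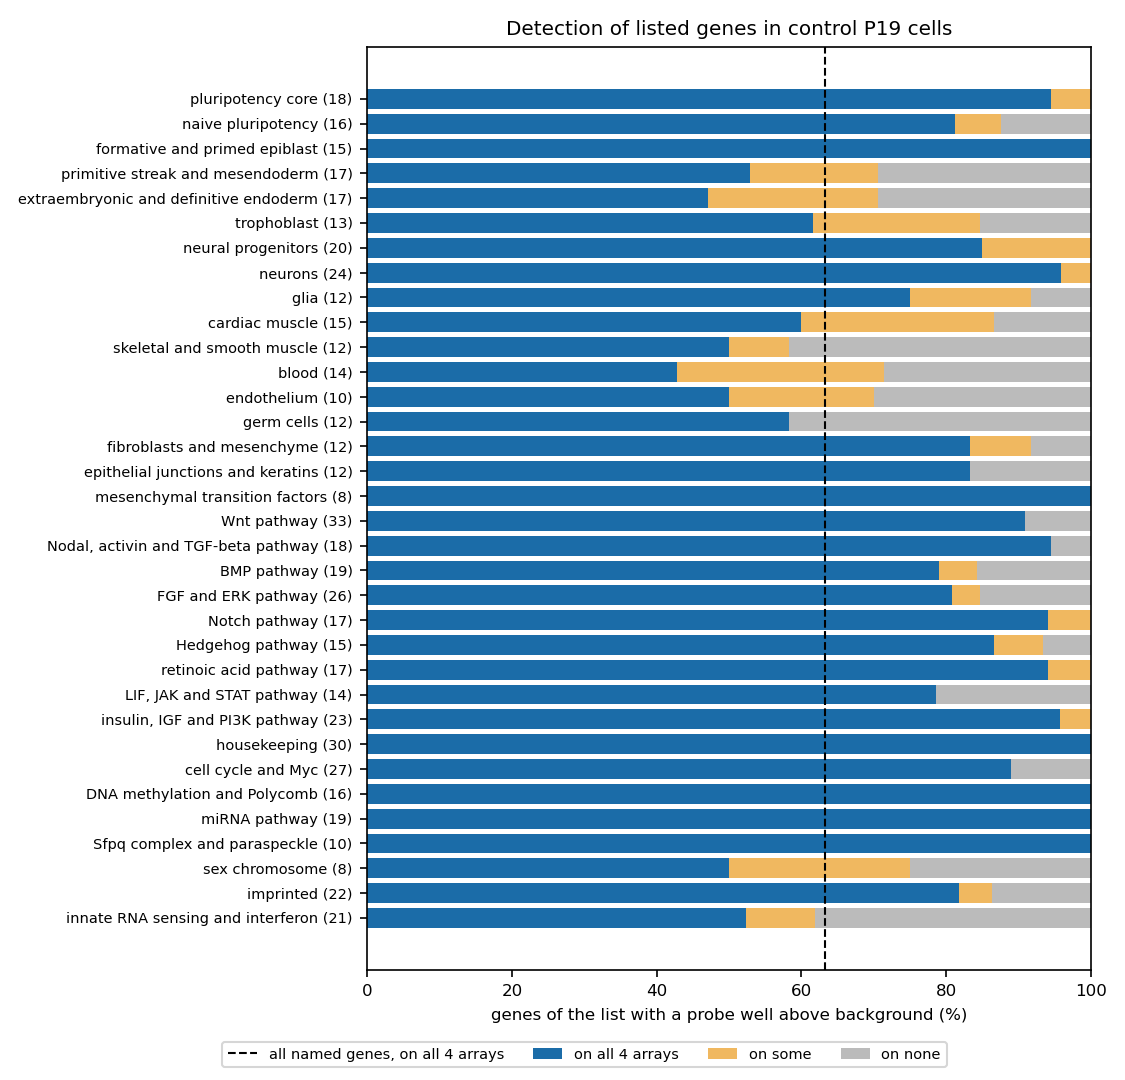
Share of the genes of each list that were well above background on all 4, on some or on none of the control arrays, as a percentage of the genes with a value, whose number stands in brackets. The dashed line is the 63.3% of all named genes detected on all 4 arrays. Blood, endoderm and muscle lists lie left of it, while the neuronal, primed epiblast and housekeeping lists lie right of it.

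Cardiac genes were detected at a share of 60%, close to that of all genes, while the lists of other muscle, endothelium and blood stood at 50%, 50% and 42.9%. Of 12 skeletal and smooth muscle genes 6 were detected and 3 clearly. The myogenic factors Myod1, Myf5 and Myog were below the limit on every array, as were Pax7 and Ckm, whereas the contractile genes Cnn1, Tagln and Acta2 were clearly detected. Of 15 cardiac genes 9 were detected and 5 clearly, including Nkx2-5 at 6.55, 6.70, 7.35 and 6.72. Tnnt2, cardiac troponin T, was detected on array 4 alone, where it read 6.09, against 2.89, 1.69 and 1.73 on the others.

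Of 14 blood genes 6 were detected and 4 clearly. Kit, the receptor for stem cell factor, which germ cells and many progenitors carry too, read 12.16, 12.19, 12.20 and 12.07. The T cell receptor subunit gene Cd3e read 7.94, 7.97, 8.82 and 8.61, and the leukocyte genes Itgam and Cd79a were clearly detected too. Gata1, Spi1, Lyz2 and Hba-x were not detected. Of 10 endothelial genes 5 were detected, with Kdr at 8.59, 8.53, 8.75 and 8.78 and Cdh5, the junction protein that defines the type, not detected. Hba-a1 shares nearly all its sequence with its copy Hba-a2, so its signal cannot be assigned to either. Germ cell genes were detected in 7 of 12 cases. Dazl, Stra8, Mael, Tdrd1 and Nanos2 were not, and Prdm1, Nanos3 and Dnd1 were clearly detected.

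Genes of both epithelial and mesenchymal character were detected together. All 8 mesenchymal transition factors and 10 of 12 epithelial genes were. The E-cadherin gene Cdh1 read 10.27, 10.25, 10.76 and 10.37, and the N-cadherin gene Cdh2 had a mean of 13.35 ± 0.16. Vim, the mesenchymal intermediate filament, and Krt18, an epithelial keratin, had means of 14.93 ± 0.16 and 12.82 ± 0.12 (SD, n = 3 for each). The tight junction genes Cldn4 and Ocln were not detected. Of 12 genes of fibroblasts and mesenchyme 10 were detected, including Fn1, Dcn and Col1a2, while Fap was not and Prrx1 was only partly.

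Signalling genes were detected in 161 of 182 cases (88.5%). In the Wnt pathway, which acts through frizzled receptors on beta-catenin, 30 of 33 genes were detected. The ligands Wnt3a, Wnt7b and Wnt10b were not, and all 6 frizzled genes of the list, Lrp5, Lrp6, Ctnnb1 and the feedback gene Axin2 were. Over all 19 Wnt ligands on the arrays, 11 were detected and 5 clearly.

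In the Nodal, activin and TGF-beta pathway 17 of 18 genes were detected. Its receptors Acvr1b and Acvr2b, the signal carriers Smad2, Smad3 and Smad4 and the nuclear partner Foxh1 were all clear, and the receptor Acvr1c was the exception. In the BMP pathway 15 of 19 were detected. Bmp4 and Bmp7 were clear, Bmp2 was close to the limit, and Bmp5, Smad9 and the decoy receptor Bambi were not detected.

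In the FGF and ERK pathway 21 of 26 genes were detected, with all 4 receptor genes Fgfr1 to Fgfr4 clear. The ligands Fgf2, Fgf3, Fgf10 and Fgf17 were not detected, whereas Fgf4, the autocrine ligand of stem cells, read 8.05, 7.99, 8.15 and 8.29. Dusp6, a feedback phosphatase of ERK, read 11.96, 11.95, 12.15 and 12.05. Fgf23, the bone hormone of phosphate balance, was chosen after its values were seen and read 13.76, 13.70, 12.85 and 13.59.

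In the Notch pathway 16 of 17 measured genes were detected, with all 4 receptors clear and the ligand Dll4 above the limit on 1 array. In the Hedgehog pathway 13 of 15 were detected. The ligand gene Shh was not, while the receptor genes Ptch1 and Smo and the factors Gli1, Gli2 and Gli3 were. Gli1, a target and effector of the pathway, read 7.77, 7.96, 6.47 and 8.12, so that its SD of 0.89 (n = 3) rested on array 3.

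Retinoic acid genes were detected in 16 of 17 cases, among them all 3 receptor genes Rara, Rarb and Rarg and the binding protein Crabp2, at 13.95, 13.96, 13.78 and 13.98. The synthetic enzyme Aldh1a2 was close to the limit and Aldh1a3 was above it on 1 array, whereas Cyp26a1, which degrades retinoic acid, read 8.91, 8.86, 9.27 and 8.83. In the LIF, JAK and STAT pathway 11 of 14 were detected. The receptor genes Lifr and Il6st, the kinase Jak1 and the target Socs3 were clear, and the ligands Lif and Il6 were not detected. In the insulin, IGF and PI3K pathway 22 of 23 were detected, including Igf1r and Eras, an embryonic Ras.

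All 30 housekeeping genes were clearly detected, with a median SD of 0.11. Actb read 17.47, 17.52, 17.11 and 17.30 and Hprt read 12.65, 12.67, 12.94 and 12.61. The widest was Eef1a1, with a range of 0.52, and its probes may also bind transcripts of near-identical copies. All 36 genes of respiratory complex I, all 75 of the mitochondrial ribosome and all 6 Mcm genes of the replication helicase were detected.

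Of 27 cell cycle genes 24 were detected. Mycn and Myc, both stem cell oncogenes, had means of 12.12 ± 0.30 and 10.24 ± 0.20 (SD, n = 3 for each), and the inhibitor gene Cdkn2a read 10.45, 10.51, 10.35 and 10.46. Trp53, Ccne2 and Cdkn2c were below the limit on every array. Each of them was read by 1 probe. Mdm2, whose product degrades p53, was clearly detected.

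All 16 genes of DNA methylation and Polycomb, all 19 of the miRNA pathway and all 10 of the Sfpq complex and paraspeckles were detected. Ago2, the slicing Argonaute, had a mean of 12.54 ± 0.17 and Sfpq, the factor knocked down in the other conditions, one of 12.01 ± 0.05 (SD, n = 3 for each). Lin28a and Lin28b were both detected, as were Tut4 and Dis3l2, which tail and degrade let-7 precursors.

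Of 7 Y-linked genes 4 were detected. These were Ddx3y, Eif2s3y, Uty and Kdm5d, while Sry was above the limit on 2 arrays and Zfy1 and Usp9y were not detected. Xist, the RNA that silences an X chromosome in female cells, was above the limit with 1 of its 2 probes and on array 3 alone. Imprinted genes were detected in 18 of 22 cases. Snrpn, Mest and Peg10 were clear, Igf2 and H19 were close to the limit, Dlk1 was partly detected, and Peg3, Zim1 and Kcnq1ot1 were not detected.

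Of 21 genes of innate RNA sensing and interferon 11 were detected and 8 were not, with sensors and interferon targets in both groups. Ifnb1, the sensors Ifih1 and Tlr3, the factor Irf7 and the interferon-stimulated genes Ifit1, Ifit3, Oas1a and Mx1 were below the limit on every array. The sensors Ddx58 (RIG-I) and Eif2ak2 (PKR), Mavs, the mitochondrial adaptor of RNA sensors, Irf3 and the receptor genes Ifnar1 and Ifnar2 were clear. Isg15 and Bst2, which interferon induces in many cells, were detected, at means of 7.44 ± 0.16 and 12.89 ± 0.28 (SD, n = 3 for each).

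Whole gene families ranged from 5.0% to 100% detected. Olfactory receptors were detected in 8.34% of 1079 cases and clearly in 2.32%, vomeronasal receptors in 8.95% of 257 and defensins in 5.0% of 60. These are genes of smell and of host defence, and most of those detected were close to the limit. Of 39 Hox genes 10 were detected and 4 clearly, namely Hoxb13, Hoxc13, Hoxd1 and Hoxd8. Hoxb13 read 11.45, 11.49, 12.23 and 11.44. Of 9 Pax genes Pax3 was the only one detected. Collagens, potassium channels and GABA and glutamate receptors were near the share of all genes, at 70.5%, 56.2% and 57.6%. Sox genes were detected in 14 of 19 cases, Klf genes in 15 of 17 and zinc finger Zfp genes in 326 of 350.

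**Figure D3:**
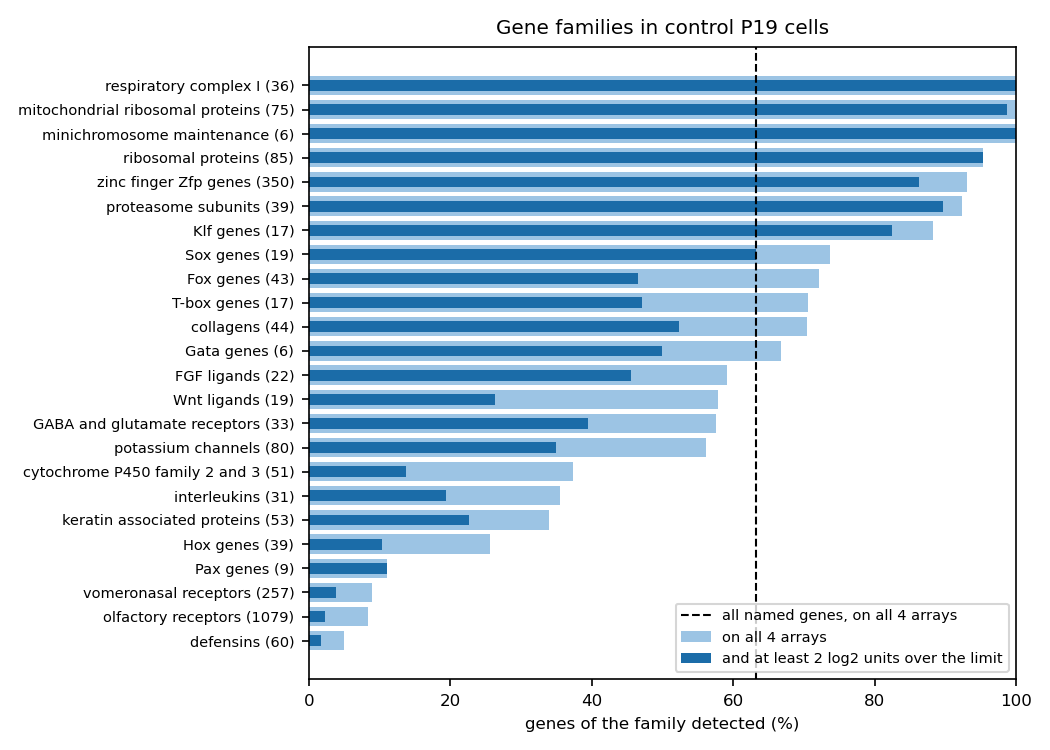
Share of the genes of 24 families detected on all 4 control arrays (wide bars) and detected at least 2 log2 units above the limit (narrow bars), in percent, with the number of genes in brackets. The dashed line is the 63.3% of all named genes. Defensins, olfactory and vomeronasal receptors and Pax genes lie lowest, and the genes of complex I, the mitochondrial ribosome and the replication helicase reach 100%.

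Detection in control cells followed promoter sequence. CpG-rich promoters are usually unmethylated and active in many cell types, and CpG-poor ones are often used in few. A promoter was matched to 17663 of the named genes by symbol, as the 250 bases before the first start that RefSeq lists. The median number of CpG was 15 in detected genes, 4 in partly detected and 2 in genes not detected. Of 3840 genes with 0 to 2 CpG 27.0% were detected, and of 4218 genes with 20 or more 91.6% were. Without olfactory and vomeronasal receptors the first share was 34.2%. These shares are descriptions across genes, which share families and base composition, and no test was made.

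Short motifs were searched on both strands of the same windows. GGGCGG, which contains a CpG and is the core of the GC box, was present in 56.2% of detected genes and 16% of genes not detected, against 43.6% of all matched genes. TATAAA, the core of the TATA box, was present in 7.31% and 21.5%, against 11.7%. CCAAT was present in 36.4% and 34.6%, against 35.8%. In the printed windows GGGCGG occurs in those of Pou5f1, Sox2 and Zfp42, and CCAAT in those of Pou5f1, Sox2, Zfp42 and Alb. A match says only that the letters are in the window. Zfp42, with 9 CpG and both motifs, was not detected, so the trend over genes did not hold for each of them.

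**Figure D4:**
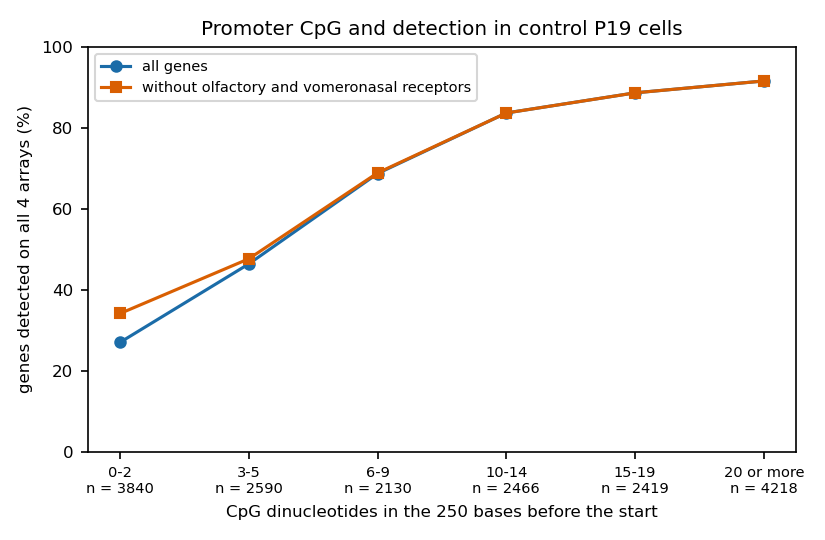
Percentage of genes detected on all 4 control arrays against the number of CpG dinucleotides in the 250 bases before the start, in 6 groups of genes whose sizes stand under the axis. The share rises from 27.0% with 0 to 2 CpG to 91.6% with 20 or more, and leaving out olfactory and vomeronasal receptors raises mainly the first group.

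The spread between control samples was small for most genes and rested largely on array 3. Over all 17246 detected genes the median SD was 0.150 (n = 3), and without array 3 it was 0.0717. It fell with signal, from 0.25 for genes with a mean below 6 to 0.10 for those at 12 and over. A range over 1 log2 unit between samples was seen in 715 detected genes (4.15%), and in 82 without array 3. Of the 715 genes, array 3 was the sample farthest from the median in 545. Among the 472 detected genes of the lists 18 had such a range, and 0 had one without array 3.

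Dcx, Gap43 and Gli1, described above, are among these 18. Tbx3, a T-box factor of naive cells, read 9.57, 9.56, 7.85 and 9.48. Acta2, smooth muscle actin, read 7.89, 8.01, 9.17 and 7.94, and Tgfb1 read 5.16, 5.02, 6.40 and 5.01. Tbx3 was thus lower and the other 2 genes were higher on array 3 alone. The others include the neuronal gene Elavl3, the Notch genes Hey2 and Lfng, the ERK inhibitor gene Spry4, the imprinted genes H19 and Phlda2, and Prm1, Sycp3, Col1a1, Cdk1, Foxa1 and Wnt8a.

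The 10 genes with the largest range among those whose kept probes were all detected included both unnamed transcripts and known genes. LOC102642338 read 5.71, 5.94, 5.29 and 11.56, Tsks, a kinase substrate of the testis, read 4.56, 4.90, 4.65 and 7.85, and Was, a blood cell actin regulator, read 5.35, 4.74, 7.73 and 4.96. Lemd2, a nuclear envelope protein, read 17.68 on array 1 and between 12.59 and 13.04 on the others, so even the paired arrays 1 and 2 differed for it by 4.64. LOC102640292 and LOC102639556 read 6.81 and 5.81 on array 3 and at least 8.18 on the others. In these 2 genes array 3 was lower than the other samples by 2.01 to 2.63 in each of the 4 conditions. The rest were 1810009N02Rik, B130024G19Rik, LOC102633858 and NAP068455-1.

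**Figure D5:**
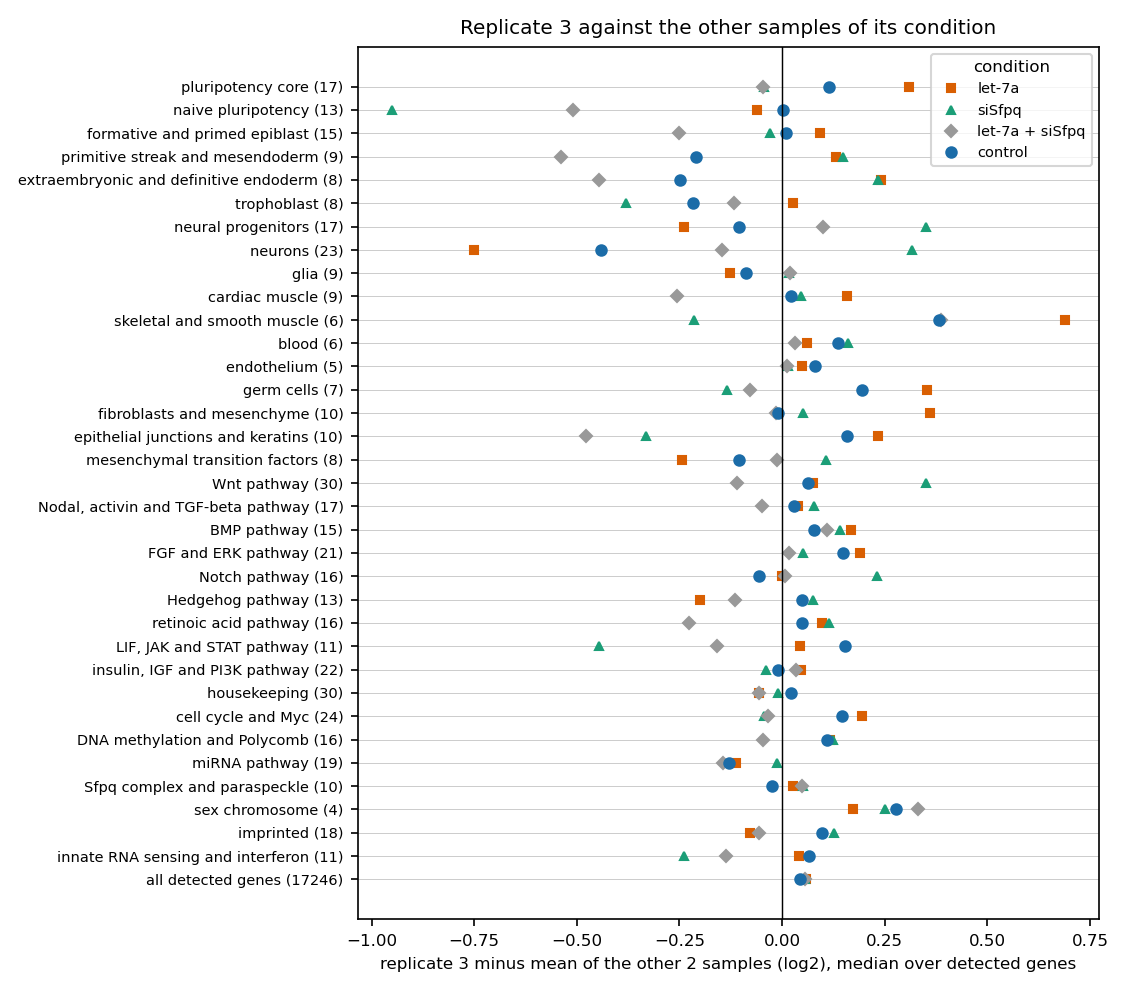
Difference between replicate 3 and the mean of the other 2 samples of its condition, in log2 units, as the median over the detected genes of each list, whose number stands in brackets. Blue circles are control samples. The neuronal list lies at -0.44 in control and -0.75 in let-7a samples but at 0.32 in siSfpq samples, while housekeeping genes and all detected genes lie near 0.

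Control cells were last set against the other conditions, which share these control samples. Of the 17246 genes detected in control, 99.4% were also detected with let-7a, 95.2% with siSfpq and 98.8% with let-7a + siSfpq, and 16367 were detected in every condition. The lowest signal marked well above background lay at 3.28 to 3.87 on the let-7a arrays and 3.75 to 4.34 on the siSfpq arrays. On the let-7a + siSfpq arrays it lay at 3.40 to 3.77. The part of this limit in the shares was not tested. In limma fits over 18249 genes, 897 were higher (4.92%) and 373 lower (2.04%) under let-7a. With siSfpq 1152 were higher (6.31%) and 1338 lower (7.33%), a balance that turned with 75th percentile scaling, to 1520 higher and 1298 lower. With let-7a + siSfpq 236 were higher (1.29%) and 42 lower (0.23%). With the replicate number as a block the calls were 3986, 6899 and 1488, without replicate 4 they were 2, 0 and 0, and without replicate 3 they were 5492, 8983 and 3327.

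Mature let-7a, the miRNA that was overexpressed, is printed because the marker Lin28a is among its known targets, with the seed, bases 2 to 8, in capitals.
mmu-let-7a-5p: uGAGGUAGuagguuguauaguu
Lin28a read 14.40, 14.34 and 14.42 in the 3 control samples and 13.43, 13.69 and 13.71 with let-7a, without overlap. It fell by 0.77 on the log2 scale (SE 0.11, limma adjusted p = 0.0024), and by 0.57 with let-7a + siSfpq (SE 0.11, limma adjusted p = 0.0351). Sox2 fell by 0.72 with siSfpq (SE 0.18, limma adjusted p = 0.0276). Without replicate 4 these differences were about as large, at -0.81, -0.60 and -0.65, but their limma adjusted p values were 0.149, 0.801 and 0.533. With the replicate block the limma adjusted p values were 0.00065, 0.0070 and 0.0050. Pou5f1 differed from control by at most 0.15 in any condition, with limma adjusted p values of 0.641 or more.

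Lists were compared over the members detected in control, whose place in the fit did not depend on the other conditions. This choice rests on 1 of the groups compared, and it leaves out members that were below the limit in control. The siSfpq median over all tested members was 1.18 for the primitive streak and 1.10 for epithelial genes, against 0.47 and 0.77 here. For naive genes it was 0.92 both ways. Over all 17246 genes detected in control the calls under let-7a were 4.44% upward and 2.15% downward, and those under siSfpq 6.09% upward and 7.49% downward. Of the 23 detected neuronal genes 16 were higher and 0 lower with let-7a, with a median difference of 1.66 against -0.04 over all detected genes. With siSfpq 1 was higher and 14 were lower, with a median of -0.98 against 0.01. With let-7a + siSfpq 2 were higher and 0 lower, with a median of 0.11 against -0.02. Over all 17246 genes 193 were higher and 42 lower in that comparison.

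Of the 17 detected core pluripotency genes 5 were lower and 0 higher with let-7a (median -0.37), namely Lin28a, Nanog, Utf1, Zscan10 and Trim71. With siSfpq 8 of 17 genes of neural progenitors were lower (median -0.72), and so were 4 of 8 mesenchymal factors, of which 1 was higher (median -0.44). Higher with siSfpq were 6 of 13 naive genes (median 0.92), 5 of 11 genes of the LIF, JAK and STAT pathway (median 0.71), 4 of 10 epithelial genes (median 0.77), 4 of 9 genes of the primitive streak (median 0.47) and 3 of 8 trophoblast genes (median 0.69). Replicate 3 of siSfpq differed from the other siSfpq samples by medians of -0.95, -0.45, -0.33, 0.15 and -0.38 for these 5 lists. Over all detected genes that median was 0.06. The remaining members of these lists did not pass the test. These lists are a selection from 34 made without a stated rule, and other lists had similar shares of calls. With let-7a 3 of 9 primitive streak genes were lower and 1 was higher (median -0.44). With siSfpq 6 of 18 imprinted genes were lower and 1 was higher, and 5 of 16 retinoic acid genes were lower and 2 were higher. Without replicate 4 no member of any list was called with let-7a or with siSfpq, while the neuronal medians were 1.66 and -0.83. With the replicate block 18 neuronal genes were higher with let-7a, and with siSfpq 1 was higher and 16 were lower. The block called 9 core genes lower with let-7a. With siSfpq it called 12 progenitor genes and 5 mesenchymal factors lower, and 2 mesenchymal factors higher. It called 9 naive, 7 LIF pathway, 7 epithelial, 5 trophoblast and 4 primitive streak genes higher, and 1 streak gene lower. Over all 17246 genes it called 1896 higher and 1864 lower with let-7a, and 3190 and 3425 with siSfpq.

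Among the listed genes that were below the limit on every control array, 5 were above it on all 4 arrays of another condition. The 3 described first were chosen by their limma calls. The other 2 had none in the main fit, though Mesp1 had 1 with the replicate block. All 5 entered the fit through a condition in which they were high, so their values are a description that no test supports. Hnf4a, a hepatic nuclear receptor, read 2.07, 3.29 and 2.29 in the control samples and 4.71, 4.47 and 4.62 with let-7a, at least 1.60-fold higher. Cdx2, a caudal homeobox factor, read 3.38, 1.66 and 3.46 in control and 5.78, 4.19 and 7.13 with siSfpq, at least 3.43-fold higher. Its value on siSfpq array 3 was no higher than the lowest marked signal of control array 3, 4.19, so this bound rests on the other samples. Ocln, the occludin gene, read 2.70, 1.84 and 2.26 in control and 5.25, 4.27 and 4.66 with let-7a + siSfpq, at least 1.75-fold higher. The bounds set the treated mean against the lowest signal well above background, or the gene's own where that was higher. They hold for the processed signal alone, since with the normexp background correction, which adds an offset of 50, the differences were 0.42, 0.85 and 0.42 on the log2 scale, less than these bounds. Mesp1, a mesoderm factor, read 3.12, 2.62 and 3.97 in control and 4.67, 4.18 and 4.52 with let-7a. Cdkn2c, a cell cycle inhibitor, read 2.44, 4.12 and 2.95 in control and 4.35, 4.06 and 4.32 with let-7a, with overlap between the groups. The lowest marked signal was 4.19 on control array 3, where Cdkn2c read 4.12, and 3.87 on let-7a array 3, where it read 4.06. The part of the limit in such crossings was not tested. No listed gene detected in control was below the limit on every array of another condition.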

How the data were processed

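P19 cells under 4 conditions were profiled on 16 single-colour Agilent arrays, read with Agilent Feature Extraction 10.7.3.1 per the file headers. The authors deposited the processed signal of each spot, a background-subtracted intensity, with flags for outliers and for signals well above background. A second table deposited by the authors holds log2 values, quantile normalized with limma per the methods. Each of its columns ranked probes as the median signal did, which does not by itself give its scale, and it served as an alternative. Array signal over background, not read depth, limits precision.

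After removal of outlier and control spots, repeated spots of a probe were combined by their mean, and log2 processed signals were quantile normalized over all arrays (limma 3.58.1, R 4.3.3). In all 123 of 55681 probes had no value on an array and were dropped. Genes were named through RefSeq accessions and symbols. A gene's level is the mean over the probes that passed the background flag on every array of some condition, or over all its probes where none did. Control arrays 1 and 2, and likewise replicates 1 and 2 of each other condition, were averaged. How close replicates 1 and 2 lay to each other was measured for the control arrays alone. Conditions were compared with limma over 12 samples, with a trend and Benjamini-Hochberg adjustment at 0.05. Slide 1 then held 1 sample per condition, so no comparison could be made within it. Deviations from the condition mean correlated by 0.285 to 0.707 between samples of the same replicate number and by -0.624 to 0.202 between different numbers, so the numbers paired the samples. The main fits left this pairing out, and counts with the replicate number as a block are given beside theirs. The fits were also run on simulated data with independent noise in each sample, which lacks the pairing, and nothing is concluded from that run.

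Genes were named by rule: genes marked in 34 lists of 583 genes, partly detected or variable members, the 10 of largest range, and members that crossed the detection limit with a call. Fgf23 and the Hox genes were named after their values were seen. The members, lists and families were chosen with earlier results of these data known. The listed genes Hes1 and Rian were not analysed here. Alternatives covered scaling, background, probe choice, filters, blocks and single replicates, and the limit of 2 log2 units was added after the data were seen.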

Additional observations from a re-analysis of the deposited data

How the results depend on the processing

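The count of detected genes stayed between 14564 and 21372 under every alternative, against 17246, and 298 of 306 counts of list members moved by less than 1.5 times. Levels depended more on the choices, since those of 196 of 277 named genes moved by over 1 SD with normexp, 165 with the authors' table and 84 with the brightest probe. The median SD between control samples was 0.236 with no normalization between arrays and from 0.0717 to 0.158 when 1 replicate was left out. Comparisons with control depended far more on them. With the replicate block 3986, 6899 and 1488 genes were called for let-7a, siSfpq and let-7a + siSfpq, against 1270, 2490 and 278 without it, and with each array counted as 1 sample 3611, 6555 and 1433. Without a filter on dim probes siSfpq gave 1493 and let-7a + siSfpq 183, and with only the 2 conditions compared siSfpq gave 0 by limma, although 5643 genes had an unadjusted p under 0.05 in the fit over all conditions. Leaving out 1 replicate gave 2 to 5492, 0 to 8983 and 0 to 3327, the lowest without replicate 4 and the highest without replicate 3. The share of higher genes among the let-7a calls, 70.6%, was 53.1% with the block and 51.6% without replicate 3, and for let-7a + siSfpq 84.9% became 65.5% and 56.8%. The Pou5f1 difference for let-7a + siSfpq, 0.00, was -0.020 with 75th percentile scaling, -0.0061 with normexp and from -0.041 to 0.13 when 1 replicate was left out. The cause of these shifts was not tested. A gene not detected has only a bound on its level, and 57 of the 68 such listed genes rest on 1 probe.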

Other observations

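Besides named genes, the arrays held 7313 regions or transcripts known only by a genome region or a probe ID. Of these 4126 were well above background on all 4 control arrays. Among named genes outside the lists, Tbx1, a T-box factor of the pharyngeal arches, was chosen after its values were seen and read 13.08, 13.06, 13.33 and 13.12 on control arrays 1 to 4. Of the listed genes, 38 had a probe well above background on all 4 control arrays and another on none. Among them are Esrrb, Dppa2, Apoa2, Cubn, Gcm1, Gfap, Rbfox3, Cd79a, Bmp4, Fgfr3, Notch1, Gli1, H19, Ddx58 and Isg15. The calls given above for these genes hold for some of their probes only.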
